A study of Homo sapiens with 15 samples.

Results

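KDAC6 (HDAC6) is a cytoplasmic lysine deacetylase with a pair of catalytic domains. The second domain removes acetyl groups from α-tubulin and other cytoplasmic proteins, and a zinc finger at the end of the protein binds ubiquitin and ties KDAC6 to aggresomes and autophagy. Tubastatin A is a hydroxamate that is sold as a KDAC6-selective inhibitor. The data described here compare RNA from HT1080 cells, a human fibrosarcoma line, whose KDAC6 has 1 residue of its first catalytic domain replaced (6CD1m, labelled HDAC6H216A), with RNA from WT HT1080 cells, both grown in Tubastatin A.

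The 6 libraries of this comparison, of 15 in the series, were chosen by their labels. They comprise 3 of 6CD1m cells given 1 μM Tubastatin A for 2 days and 3 of WT cells given 1 μM for 14 days. Cell line and duration therefore changed together, and their effects cannot be told apart. Where a gene is set beside other groups, these are 6CD2m cells (second catalytic domain substituted, HDAC6H611A) on 1 μM Tubastatin A for 2 days, 8CDm cells (HDAC8H143A) on 5 μM PCI-34051, a KDAC8 inhibitor, for 2 days, and WT cells on 5 μM PCI-34051 for 14 days, with 3 libraries each. The mutant lines were made from HT1080 by CRISPR/Cas9 editing, and whether each is 1 clone was not given in the sources used here. Untreated cells and WT cells treated for 2 days were not analysed here.

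Between 10932482 and 14068276 reads were counted on genes in the 6CD1m libraries and between 15280804 and 19409966 in the WT libraries on Tubastatin A. Levels are given as CPM, the counts divided by the TMM-scaled total of their library, and differences as log2 fold changes of 6CD1m minus WT with their standard errors (SE). Log2 levels of 6CD1m replicate 1 correlated with those of its replicates with a Pearson r of 0.953 and 0.970, while the other pairs within both groups had an r of 0.980 to 0.991. Libraries of both groups differed in GC content. Across genes, the deviation of a library from the mean library correlated with GC content with Spearman coefficients of 0.57, 0.29 and -0.15 in the 6CD1m libraries and -0.40, -0.06 and 0.24 in the WT libraries. Over 13946 genes, the fold change itself correlated with GC content (Spearman coefficient 0.383, a description across genes, which are not independent). The 8 mesenchymal markers of the line were all tested and summed to 5362 to 7404 CPM in 6CD1m and 7189 to 8062 CPM in WT cells. VIM alone was at 3514 to 4368 CPM in 6CD1m and 4412 to 4887 CPM in WT cells. The epithelial markers EPCAM, KRT5, KRT14, CDH1 and ESRP1 and the blood markers PTPRC, CD3E and HBB had at most 3 counts in each of the 6 libraries. Other members were detected, and the epithelial list with KRT19 and CLDN4 summed to 5.44 to 14.0 CPM in 6CD1m and 3.76 to 7.45 CPM in WT cells. The blood list, nearly all of it CD68, summed to 19.8 to 54.2 CPM in 6CD1m and 81.4 to 109 CPM in WT cells. The neuronal list summed to 28.3 to 30.5 CPM in 6CD1m and 26.6 to 27.3 CPM in WT cells. For the endothelial list the sums were 1.25 to 1.68 CPM and 2.48 to 3.89 CPM.

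HDAC6, the gene that carries the substitution, was counted at 14.2, 12.6 and 12.4 CPM in the 6CD1m libraries and at 28.1, 23.4 and 25.5 CPM in the WT libraries. All 6CD1m libraries lay below all WT libraries, and also below the 9 libraries of the other groups. The log2 fold change was -0.97 ± 0.12 (SE, n = 3 per group), a 1.96-fold lower level, with an adjusted p of 0.000241 in edgeR's quasi-likelihood test across all genes. Without 6CD1m replicate 2 or 3 or WT replicate 1 or 3 the gene no longer passed the threshold of 0.001 (adjusted p up to 0.00233). It was also lower than in 6CD2m cells, by a log2 fold change of -0.90 (adjusted p = 5.42e-05), where it stood at 22.9 to 25.1 CPM. The counts are summed over the gene and do not show which allele they came from. HDAC6 lies on the X chromosome (GRCh38 chrX:48801377-48824982).

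Of the other 10 genes of the HDAC family, HDAC1 to HDAC11, none passed the threshold by this test, and DESeq2 called 2 of the 11 beside 617 of all genes. HDAC9, a class IIa deacetylase that binds MEF2 factors, came closest. Its libraries stood at 34.3, 38.9 and 42.6 CPM in 6CD1m and 72.4, 60.0 and 61.4 CPM in WT cells, which did not overlap, with a log2 fold change of -0.74 ± 0.12 and an adjusted p of 0.0014. HDAC8, the target of PCI-34051, was at 12.6 to 19.1 CPM and 15.6 to 18.0 CPM (log2 fold change 0.00, adjusted p = 0.989). For HDAC10, the values of 63.8, 34.8 and 27.1 CPM in 6CD1m and 20.8, 26.8 and 29.5 CPM in WT overlapped, and replicate 1 of 6CD1m was the highest. Over the family, 6 of 11 genes had an unadjusted p below 0.05, beside 6247 of all 19535 genes.

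Across the 19535 genes tested, 155 differed between Tubastatin A-treated 6CD1m and WT cells at an adjusted p below 0.001, the false discovery rate of the study, which is 0.793% of the genes. Of these, 53 were higher in 6CD1m cells (0.271%) and 102 were lower (0.522%). The fold change reached 2-fold for 114 of the 155. Among the called genes, 132 were protein-coding, 13 were other RNA genes, 8 were pseudogenes and 2 had no entry in the annotation used. The libraries of both groups did not overlap for any of the 155, while 31.0% of all genes tested had this property. The same libraries chose the 155 genes, so nothing is read from this count. How many genes were called depended on the libraries in the model. Without 6CD1m replicate 2 the number was 64, without WT replicate 1 it was 71, without WT replicate 2 it was 83 and without WT replicate 3 it was 82. It was 107 without 6CD1m replicate 1. Of the 155 genes, 58 were called whichever of the 6 libraries was left out, 19 of them higher and 39 lower. In a model of only the 6 libraries, which estimates the spread from 3 libraries against 3, 9 genes passed: SLC14A1, ENSG00000280356, ENSG00000235485 and PPP2R2C, which were higher in 6CD1m, and MMP1, IL1B, GLUL, ACTL8 and PTPRN, which were lower.

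**Figure D1:**
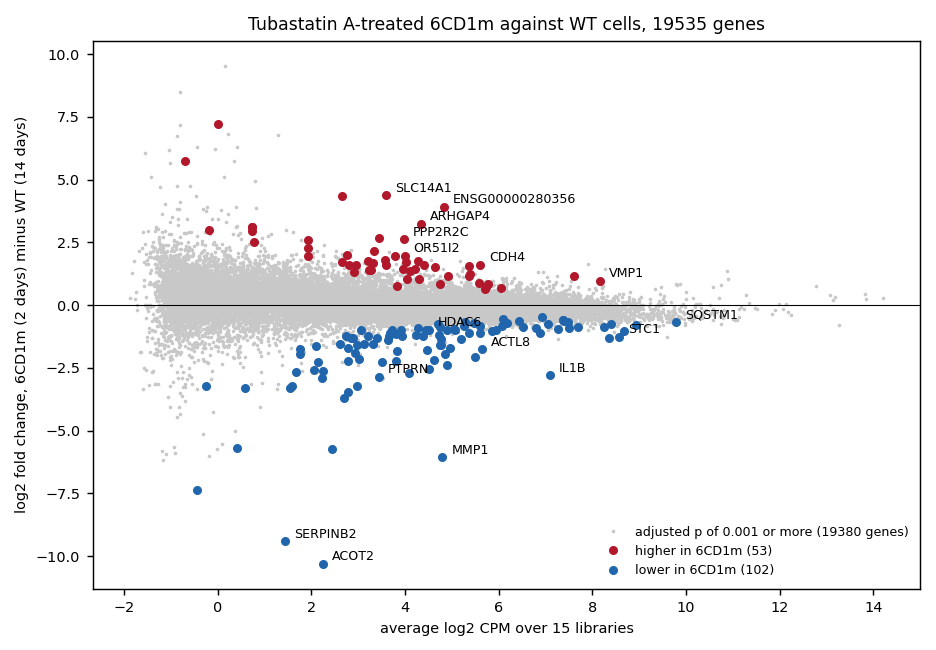
Log2 fold change of 6CD1m (2 days) minus WT (14 days) on Tubastatin A against the average log2 CPM, one point per gene for 19535 genes. The 53 called genes above 0 (red) and 102 below 0 (blue) include few of the highest-expressed genes, and SERPINB2 and ACOT2 lie far down because all 6CD1m counts were 0, so that their fitted value is no measured fold.

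The genes that were lower in 6CD1m cells included a protease, a protease inhibitor and cytokines. Collagenases cut fibrillar collagen, plasminogen activator inhibitors block the proteases that start matrix breakdown, and interleukin-1 drives the expression of both kinds of gene and of chemokines in mesenchymal cells. MMP1, which had the smallest p of the lower genes and encodes the interstitial collagenase (chr11:102789920-102798160), was at 0.505, 0.491 and 0.837 CPM in 6CD1m and at 54.9, 34.8 and 36.2 CPM in WT cells. It was nearly absent from every 6CD1m library, and its level in all 12 other libraries was higher. The log2 fold change was -6.07 ± 0.31, or 67.3-fold lower (adjusted p = 3.41e-08). SERPINB2, the inhibitor of urokinase also known as PAI-2 (chr18:63871692-63903890), had 0 counts in the 3 libraries of 6CD1m and was at 6.19, 4.47 and 4.62 CPM in WT cells. Against a floor of 3 counts per library, it was at least 22.7-fold lower in 6CD1m cells (adjusted p = 5.12e-06), where the floor covers counting error only. In 6CD2m and 8CDm cells it was also low, at 0.237 to 0.501 and 0.228 to 0.644 CPM.

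IL1B, which encodes interleukin-1β (chr2:112829751-112836903), was at 34.5, 40.8 and 43.8 CPM in 6CD1m and 332, 251 and 245 CPM in WT cells. The groups were far apart, with a log2 fold change of -2.79 ± 0.16, or 6.93-fold lower (adjusted p = 1.18e-07). The level was lower still in 6CD2m cells, at 9.71 to 12.1 CPM, and 8CDm cells were at 62.4 to 64.1 CPM. WT cells on PCI-34051 stood at 235 to 362 CPM. CXCL8, the neutrophil chemokine interleukin-8, was at 8.00, 8.63 and 8.57 CPM in 6CD1m and at 25.2, 19.3 and 18.5 CPM in WT cells. These groups did not overlap (log2 fold change -1.32 ± 0.17, adjusted p = 0.000214). The call for CXCL8 was lost without any 1 of the 6CD1m libraries and without WT replicate 1 (adjusted p up to 0.00214). WT cells on PCI-34051, at 5.41 to 7.71 CPM, lay below 6CD1m cells, and 6CD2m cells were at 0.445 to 0.659 CPM.

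The promoter of CXCL8 is shown because AP-1, a factor that responds to growth factors and cytokines, is known to act there. In the 250 bases before the start of the gene (RefSeq, GRCh38.p14, chr4:73740319-73740568, plus strand, printed 5′ to 3′), the capitals mark the letters TGACTCA, found on either strand by a search of the sequence.
CXCL8: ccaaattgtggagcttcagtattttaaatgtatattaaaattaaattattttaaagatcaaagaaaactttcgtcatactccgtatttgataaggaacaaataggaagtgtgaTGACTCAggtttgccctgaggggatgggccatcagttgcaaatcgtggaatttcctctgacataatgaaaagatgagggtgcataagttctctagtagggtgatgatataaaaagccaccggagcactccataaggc
The match starts 137 bases before the gene start. Over all 27305 genes with such a sequence, 5.19% held the motif. Of the 155 called genes, 91 (58.7%) had a promoter sequence, which is too few for a test over the set. Among these, 3 of 66 lower genes (4.55%) and 0 of 25 higher genes held the motif. A match is a description of the letters and not evidence of binding.

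Among the 10 tested members of the cytokine list, IL1B and CXCL8 fell and none rose, beside 0.522% of all genes that were called lower. The median log2 fold change of the list was -0.73 against -0.01 over all genes, non-coding ones included. For protein-coding genes alone, the medians by chromosome ran from -0.33 to 0.05. IL1A, the other agonist of the interleukin-1 receptor, had a log2 fold change of -1.42 (adjusted p = 0.00951), and IL11 one of -0.83 (adjusted p = 0.00541). Of the 16 genes of the list, CXCL1, CXCL2, CCL2, CCL20 and CSF2 had at most 3 counts in every library of both groups. Of the 15 tested matrix proteases and inhibitors, MMP1 and SERPINB2 were called, both lower (0.522% of all genes), and the median of the list was -0.37. MMP3, stromelysin 1 (log2 fold change -1.89), and MMP9, gelatinase B (-1.48), had adjusted p-values of 0.0101 and 0.0166.

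**Figure D2:**
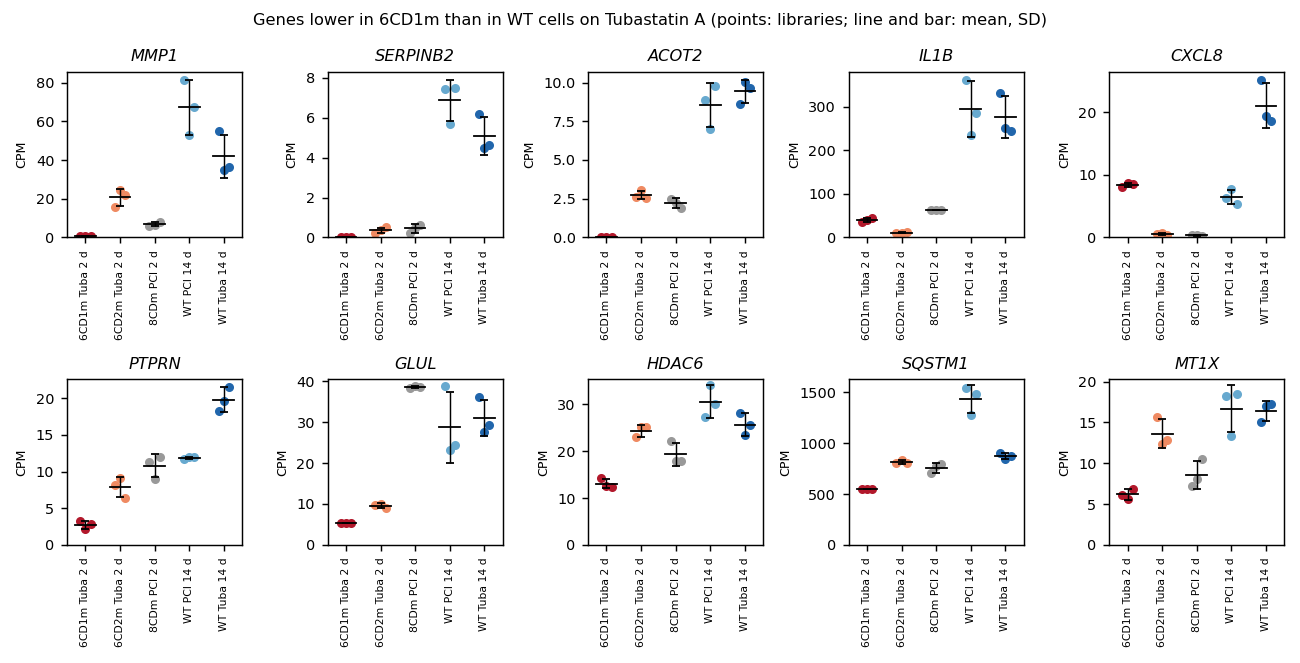
CPM in every library (points) with mean and SD (n = 3) for 10 genes that were lower in 6CD1m than in WT cells on Tubastatin A, in all 5 groups. For MMP1, SERPINB2, ACOT2, PTPRN, GLUL, HDAC6, SQSTM1 and MT1X the 6CD1m libraries lie below the 12 others, while for IL1B those of 6CD2m, and for CXCL8 those of the 3 other groups, lie lower.

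ACOT2, a mitochondrial thioesterase that releases fatty acids from coenzyme A (chr14:73567620-73575658), followed MMP1 in p. It had 0 counts in the 6CD1m libraries and stood at 8.62, 10.0 and 9.65 CPM in WT cells, with 156, 155 and 167 counts. All other groups had counts, with 2.56 to 3.04 CPM in 6CD2m and 1.88 to 2.51 CPM in 8CDm cells. Against the floor of 3 counts per library the level in 6CD1m was at least 42.1-fold lower (adjusted p = 5.31e-08). ACOT1, a near-identical neighbour, had 0 counts in all 15 libraries, so that the reads of ACOT2 may include those of ACOT1 and the gene of origin is uncertain. HLA-DRA, a chain of the class II antigen-presenting molecule HLA-DR, had 0 counts in 6CD1m as well. It had only 62 counts over the WT libraries, which made it at least 5.40-fold lower in 6CD1m. Its call was lost without any 1 of the 6 libraries (adjusted p up to 0.0035).

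PTPRN, a phosphatase-like membrane protein of dense-core secretory granules (chr2:219289623-219309648), was at 3.20, 2.11 and 2.86 CPM in 6CD1m and 18.3, 19.6 and 21.6 CPM in WT cells. WT cells on Tubastatin A were the highest of the 5 groups and 6CD1m cells the lowest. The log2 fold change was -2.87 ± 0.18 (adjusted p = 3.36e-07). Other lower genes encode granule proteins too and were named after their values were seen. VGF, a granin-like precursor of neuropeptides, was at 15, 9.47 and 5.72 CPM in 6CD1m and 45.1, 49.3 and 61.5 CPM in WT cells (-2.38 ± 0.23). SCG5, a chaperone of a prohormone convertase, was at 5.47, 9.40 and 6.90 CPM and 31.1, 29.6 and 23.3 CPM (-1.94 ± 0.17). All 3 genes had non-overlapping groups, but VGF was as low in 6CD2m cells (12 to 13.1 CPM), whereas SCG5 was higher there than in WT cells (45.3 to 49.1 CPM).

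GLUL, glutamine synthetase, was at 5.30, 5.26 and 5.44 CPM in 6CD1m and 36.1, 27.7 and 29.3 CPM in WT cells. This is a log2 fold change of -2.54 ± 0.18, or 5.81-fold lower (adjusted p = 1.13e-06), and 6CD2m cells were also low, at 8.90 to 10.0 CPM. BCL2A1, an inhibitor of apoptosis of the BCL2 family, was at 1.94, 1.54 and 2.44 CPM in 6CD1m and 13.8, 12.6 and 9.99 CPM in WT cells (-2.61 ± 0.21). Here the WT cells on Tubastatin A stood above every other group, as no library of the other groups exceeded 4.17 CPM. They were also the highest group for NELL2, a secreted glycoprotein of neurons, with 4.13, 5.90 and 6.90 CPM in 6CD1m and 29.96, 28.2 and 24.8 CPM in WT cells (-2.28 ± 0.20), where the next group, 8CDm, reached 16.0 CPM.

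By the rule on size, the largest differences on the lower side further included PGAP4, a Golgi enzyme that adds a sugar to GPI anchors (-3.69 ± 0.30), CCDC169 (-3.48 ± 0.24), ACTN2, the α-actinin of muscle Z-discs (-3.32 ± 0.50), ADCY8, an adenylyl cyclase (-3.30 ± 0.33), EMILIN1, an elastin-associated matrix protein (-3.24 ± 0.41), BCAM, a laminin-binding surface protein (-3.21 ± 0.29), ZNF468, a zinc finger gene (-2.89 ± 0.38), and MAGEC2, a cancer-testis antigen (-2.72 ± 0.34). All of these had 6CD1m libraries under 1 CPM, and their WT libraries ran from 1.82 CPM for ACTN2 to 6.36 CPM for CCDC169. ACTN2, EMILIN1, ZNF468 and MAGEC2 lost the call in 3 to 5 of the fits that left out 1 library, with adjusted p-values of up to 0.00764. For ACTN2 that was every library but 6CD1m replicate 3. PGAP4, CCDC169, ADCY8 and BCAM were called in each. The gene named CDR1-AS, whose transcript binds the microRNA miR-7, and CDR1 on the opposite strand both fell, with log2 fold changes of -5.72 ± 0.52 and -5.70 ± 0.76. The call for CDR1 was lost without 6CD1m replicate 1 or 2 or WT replicate 1 or 3 (adjusted p up to 0.00353). CDR1 had 2 counts in 6CD1m against 152 in WT cells (ratio 60.5, 95% interval 16.5 to 504, counting error only). Whether the counting used strand was not given in the sources used here, so reads of the overlapping pair cannot be told apart.

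Several lower genes encode other secreted proteins and were named after their values were seen. STC1, a glycoprotein hormone, was at 195, 281 and 302 CPM in 6CD1m and 735, 549 and 590 CPM in WT cells (-1.27 ± 0.16). PAPPA, the protease that frees insulin-like growth factors from their binding proteins, was at 146, 180 and 187 CPM and 457, 403 and 408 CPM (-1.30 ± 0.12). Both groups were separate for each gene, although 6CD2m cells were lower than 6CD1m cells for STC1 (165 to 192 CPM) and higher for PAPPA (331 to 376 CPM). IL24, a cytokine of the interleukin-10 family (-2.19 ± 0.18), SPP1, osteopontin (-1.89 ± 0.24), ESM1, a secreted proteoglycan (-1.58 ± 0.21), FGF5, a fibroblast growth factor (-1.22 ± 0.17), and INHBA, an activin subunit (-0.85 ± 0.11), also fell. PAPPA and IL24 were called whichever library was left out. The call was lost without any 1 library for FGF5 (adjusted p up to 0.00405), in 5 of the 6 fits for ESM1 and INHBA, in 4 for SPP1 and in 3 for STC1.

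Metallothioneins bind zinc and other metals, and their genes are switched on by metals through metal response elements. Of 13 genes of this list, 10 were tested and MT1X and MT1E fell (0.522% of all genes), while MT1F, MT1G and MT1M had at most 3 counts in every library. MT1X was at 6.06, 5.61 and 6.90 CPM in 6CD1m and 15, 17.1 and 17.2 CPM in WT cells. MT1E was at 35.9, 39.3 and 41.0 CPM and 67.7, 67.2 and 70.3 CPM. The log2 fold changes were -1.41 ± 0.17 (adjusted p = 0.00021) and -0.82 ± 0.08 (adjusted p = 3.31e-05). MT1X stood below the 12 other libraries, while for MT1E the 6CD2m libraries, at 34.8 to 38.7 CPM, overlapped those of 6CD1m. For MT1X the call was lost without 6CD1m replicate 1 or 2 or WT replicate 2 or 3 (adjusted p up to 0.00239). MT2A, the most abundant isoform in many cells, had a log2 fold change of -0.27 (adjusted p = 0.178), and SLC30A1, a zinc exporter, one of -0.80 (adjusted p = 0.00564). As members of a near-identical family, the MT1 genes may share reads.

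The promoter of MT1X is shown for its metal response elements, in the 250 bases before the gene start (RefSeq, GRCh38.p14, chr16:56682220-56682469, plus strand, 5′ to 3′). Capitals mark the core letters TGCGCNC or TGCACNC, searched on both strands.
MT1X: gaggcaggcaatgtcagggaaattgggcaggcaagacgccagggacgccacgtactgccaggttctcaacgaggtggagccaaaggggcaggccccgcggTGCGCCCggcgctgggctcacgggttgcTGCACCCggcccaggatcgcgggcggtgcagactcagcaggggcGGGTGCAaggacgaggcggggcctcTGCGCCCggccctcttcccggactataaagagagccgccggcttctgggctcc
There were 4 matches, which start 150, 122, 78 and 53 bases before the gene start, and the match at 78 is on the opposite strand. Of the 27305 promoters, 28.5% held at least 1 match.

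Other lists fixed by function held 1 or a pair of called genes each. SQSTM1 (p62), an autophagy receptor that meets KDAC6 at ubiquitin-positive aggregates, was at 548, 547 and 546 CPM in 6CD1m and 901, 843 and 876 CPM in WT cells. It stood below all 12 other libraries (log2 fold change -0.67 ± 0.09, adjusted p = 0.000228). The call was lost in 5 of the 6 fits without 1 library (all but 6CD1m replicate 1), with an adjusted p of up to 0.00247. None of the other 13 tested genes of KDAC6 partners, aggresome and autophagy was called, and their list had a median of -0.34. EPG5, a tether of autophagosomes to lysosomes that was not on the list, fell from 270, 248 and 250 CPM in WT to 151, 169 and 175 CPM in 6CD1m cells (-0.63 ± 0.08). NPC1, the lysosomal cholesterol transporter, fell from 625, 503 and 511 CPM to 223, 280 and 292 CPM (-1.04 ± 0.14). EPG5 lost the call in 4 of the 6 fits without 1 library (adjusted p up to 0.00224) and NPC1 in 5 (up to 0.00243).

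Of 17 integrin genes, ITGB3 fell and ITGB4 rose, beside 0.793% of all genes called in either direction. ITGB3, the β subunit of the vitronectin receptor, was at 29, 39.7 and 34.1 CPM in 6CD1m and 80.8, 68.1 and 63.0 CPM in WT cells (-1.04 ± 0.12, adjusted p = 0.000115). ITGB4, the β subunit of the laminin receptor of hemidesmosomes, was at 11.4, 8.91 and 8.23 CPM and 2.71, 2.98 and 3.58 CPM (1.61 ± 0.18, adjusted p = 9.76e-05). 6CD2m cells had an ITGB4 level of 11.7 to 12.9 CPM, and without WT replicate 1 or 2 its adjusted p was up to 0.00111. CDH4, R-cadherin, was the only called gene among 13 cadherins, protein 4.1 and filamin genes, with 47.7, 51.9 and 50.7 CPM in 6CD1m and 13.4, 18.2 and 18.0 CPM in WT cells. It was higher in each of the mutant lines than in WT cells on either inhibitor (1.60 ± 0.11, adjusted p = 7.22e-07). SNAI2 (Slug), a repressor of epithelial genes, fell from 18.2, 18.3 and 18.8 CPM to 8.92, 9.19 and 9.90 CPM (-0.98 ± 0.11, adjusted p = 5.64e-05). In 6CD2m cells SNAI2 was nearly as low (9.59 to 10.5 CPM), while 8CDm cells stood at 17.8 to 20.6 CPM and WT cells on PCI-34051 at 16.7 to 19.1 CPM. SNAI2 was the only one of 11 tested regulators of the epithelial-mesenchymal transition that was called, and the median of that list was 0.32.

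DUSP5, the nuclear phosphatase of ERK that growth factor signalling induces, was at 64.7, 72.5 and 74.1 CPM in 6CD1m and 172, 148 and 136 CPM in WT cells (-1.11 ± 0.12, adjusted p = 4.22e-05). It was as low in 6CD2m cells (68.2 to 75.3 CPM) and stood at 186 to 203 CPM in 8CDm cells and 86 to 116 CPM in WT cells on PCI-34051. Of the 16 tested immediate early genes it alone was called, while EGR1 (-2.89) and FOS (-2.40) had adjusted p-values of 0.00322 and 0.0142, and DESeq2 called 6 of the 16. In the hypoxia and glycolysis list, NDRG1, a stress-responsive protein induced by hypoxia, fell from 474, 479 and 479 CPM to 245, 283 and 305 CPM (-0.78 ± 0.10, adjusted p = 0.000296). For NDRG1 the call was lost in the fits without 1 library other than 6CD1m replicate 3 (adjusted p up to 0.00304). EPAS1, the hypoxia-inducible factor HIF-2α, also fell, from 271, 254 and 279 CPM to 130, 149 and 161 CPM (-0.87 ± 0.11), and was named after its values were seen. EPAS1 was also at 120 to 125 CPM in 6CD2m and 129 to 134 CPM in 8CDm cells, and at 304 to 402 CPM in WT cells on PCI-34051. It lost the call without 6CD1m replicate 2 or WT replicate 1 or 3 (adjusted p up to 0.00206).

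**Figure D3:**
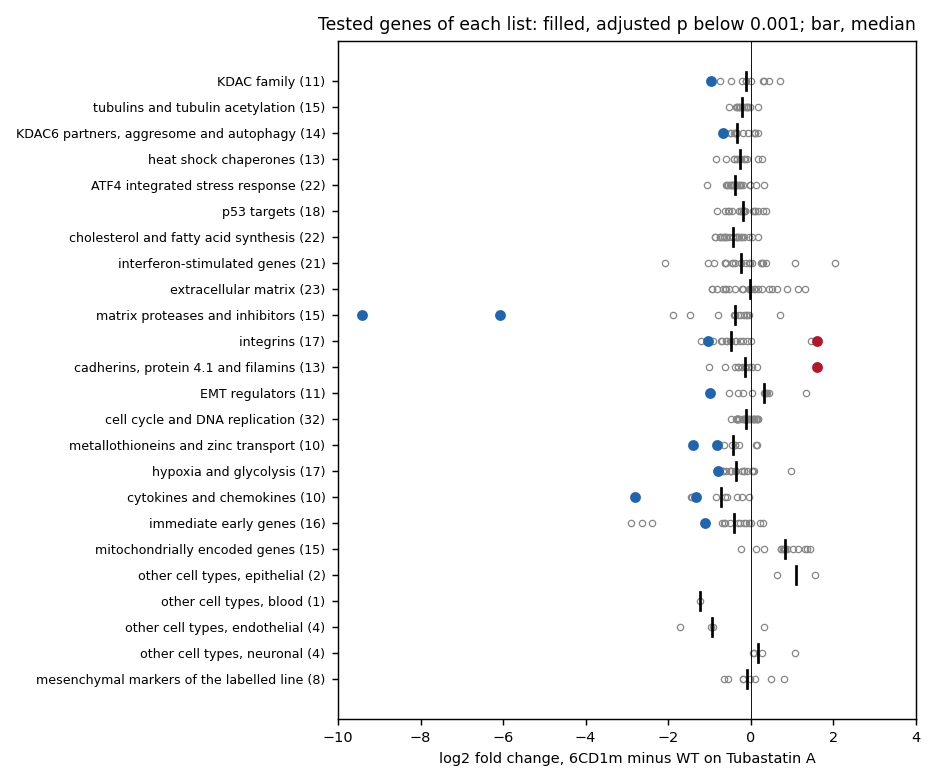
Log2 fold change of each tested gene (circles) of 24 lists, with the number tested in parentheses and the median as a bar. Filled circles passed an adjusted p of 0.001 (blue lower, red higher). Most lists have medians between -0.5 and 0, only ITGB4 and CDH4 are filled on the higher side, and the mitochondrially encoded genes lie to the right with a median of 0.84.

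No gene was called in the lists of tubulins and tubulin acetylation, heat shock chaperones, ATF4 targets, p53 targets, cholesterol and fatty acid synthesis, interferon-stimulated genes, extracellular matrix, cell cycle and DNA replication, and mitochondrially encoded genes. Counts at an unadjusted p below 0.05 were 4 of 15 for the tubulin list, 5 of 13 for chaperones, 17 of 22 for ATF4 targets, 6 of 18 for p53 targets, 17 of 22 for cholesterol and fatty acid synthesis, 9 of 21 for interferon-stimulated genes, 12 of 23 for extracellular matrix and 1 of 32 for the cell cycle, beside 6247 of all 19535 genes. DESeq2 called 0, 0, 2, 2, 4, 0, 1 and 1 of these genes in the same order. TUBA1A, an α-tubulin, was at 45.8, 72.9 and 73.5 CPM in 6CD1m and 83.8, 67 and 66 CPM in WT cells (-0.17, adjusted p = 0.595). ATAT1, the acetyltransferase of α-tubulin, was at 13.0, 11.2 and 8.71 CPM and 6.74, 12.4 and 10.3 CPM (0.17, adjusted p = 0.596). Both pairs of groups overlapped. An adjusted p below 0.05 was reached by 9.45% of all genes, and 5.81% were lower. At this threshold 12 of 22 genes of cholesterol and fatty acid synthesis were lower and none was higher. This was not particular to that list. Of 16 immediate early genes 8 were lower and 0 higher, and of 22 ATF4 targets 8 were lower and 1 higher.

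The mitochondrially encoded genes were shifted the other way. Of 15 genes, 12 were higher at an adjusted p below 0.05 (3.64% of all genes were higher at this threshold) and DESeq2 called 7, with none past 0.001 by edgeR and 13 at an unadjusted p below 0.05. Their summed level was 19541 to 26088 CPM in 6CD1m and 11671 to 16610 CPM in WT cells. The libraries did not overlap in this sum, and mitochondrial RNA made up 1.99% to 2.83% of the counts in 6CD1m and 1.09% to 1.64% in WT cells. All 15 genes add to this share, so the 12 are not 12 separate observations. The share was not particular to 6CD1m, with 2.16% to 2.88% in 6CD2m and 2.06% to 2.71% in 8CDm cells. WT cells on PCI-34051 had 1.43% to 1.69%. MT-ND4L, MT-ND5 and MT-ND6, subunits of complex I, had log2 fold changes of 1.31, 1.37 and 1.43. CD68, the only gene of the blood list that was tested, went the other way (19.2, 48.8 and 54.0 CPM in 6CD1m, 109, 81.2 and 97.6 CPM in WT cells, log2 fold change -1.23, adjusted p = 0.0142). The part of this in the results was not tested.

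On the higher side, the 3 genes with the smallest p-values were an unnamed long non-coding RNA, a urea transporter and a phosphatase subunit. SLC14A1, the urea transporter of red cells and endothelium (chr18:45687025-45752520), was at 26.9, 33.3 and 35.7 CPM in 6CD1m and 1.33, 1.69 and 1.62 CPM in WT cells. The 6CD1m libraries were above the 12 others, with 6CD2m cells at 8.35 to 11.4 CPM, 8CDm cells at 14.8 to 17.6 CPM and WT cells on PCI-34051 at 0.907 to 1.83 CPM. The log2 fold change was 4.37 ± 0.22, or 20.7-fold higher (adjusted p = 3.41e-08). PPP2R2C, a brain-enriched regulatory subunit of protein phosphatase 2A (chr4:6320578-6563600), was at 39.3, 37.0 and 38.8 CPM in 6CD1m and 5.58, 6.81 and 6.41 CPM in WT cells. Again 6CD1m was the highest group, with a log2 fold change of 2.61 ± 0.17 (adjusted p = 3.36e-07), and 6CD2m cells, at 28.5 to 31.1 CPM, followed. The long non-coding RNA ENSG00000280356 (chr22:34641179-34651862) was at 43.9, 42.3 and 45.4 CPM in 6CD1m and 2.65, 2.92 and 3.18 CPM in WT cells (3.91 ± 0.17, adjusted p = 6.36e-09). It was higher still in 6CD2m cells, at 73.2 to 101 CPM. Its neighbour ENSG00000235485 rose with it (4.35 ± 0.33).

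ARHGAP4, a GTPase-activating protein (chrX:153907367-153934999), was at 24.6, 15.2 and 13.8 CPM in 6CD1m and 1.27, 1.43 and 2.89 CPM in WT cells (3.25 ± 0.29, adjusted p = 9.01e-06). TSPAN18, a tetraspanin, was at 11.5, 12.2 and 14.3 CPM and 2.38, 3.24 and 3.06 CPM (2.13 ± 0.18, adjusted p = 5.60e-06). Both had their highest level in 6CD2m cells, at 68.4 to 86.4 and 29.6 to 33.3 CPM, and were low in WT cells on either inhibitor. SOX7, an HMG-box factor of endothelium, differed in this respect, with 12.2, 10.2 and 10.6 CPM in 6CD1m, 2.93, 2.85 and 2.60 CPM in WT cells and 0.474 to 0.612 CPM in 6CD2m cells. Its log2 fold change was 1.97 ± 0.29 (adjusted p = 0.000748), and the call was lost without any 1 of the 6 libraries (adjusted p up to 0.00725).

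**Figure D4:**
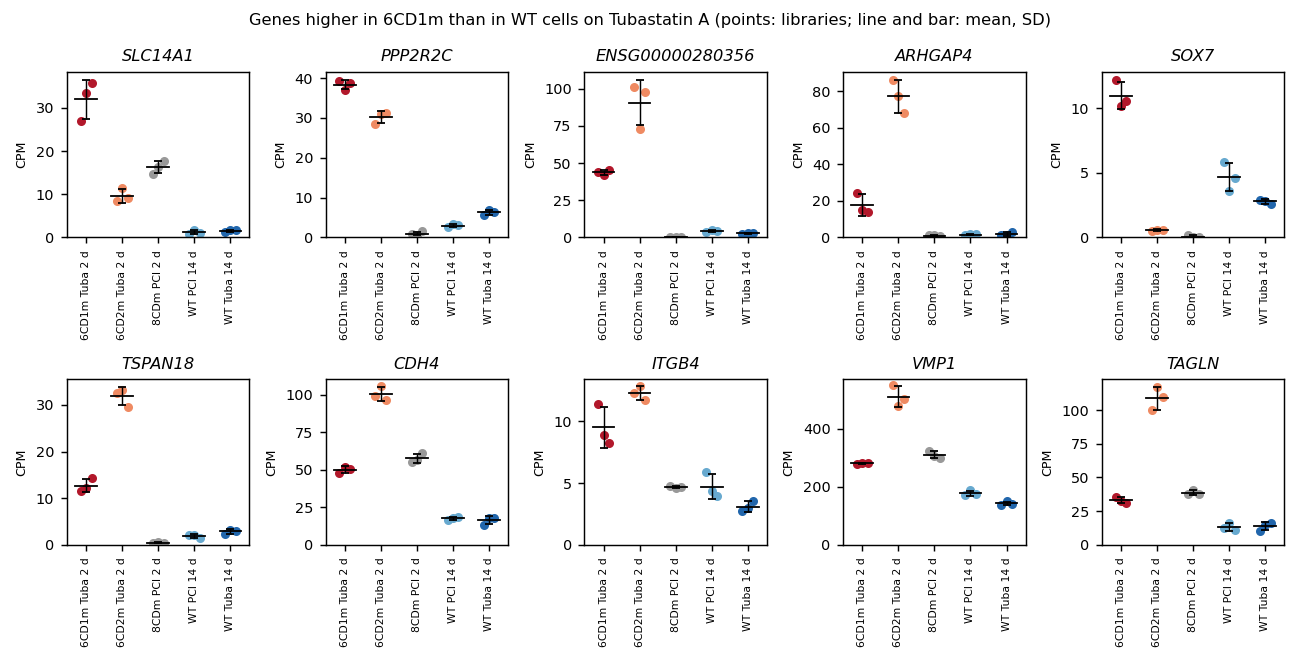
CPM in every library (points) with mean and SD (n = 3) for 10 genes that were higher in 6CD1m than in WT cells on Tubastatin A, in all 5 groups. SLC14A1, PPP2R2C and SOX7 were highest in 6CD1m cells, and the other 7 were higher in 6CD2m than in 6CD1m cells, by the mean.

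The rule on size further named LINC02593 (2.94 ± 0.38) and LINC03061 (2.65 ± 0.33), which are long non-coding RNAs, LAPTM5, a lysosomal membrane protein (2.59 ± 0.38), TP53TG3 (2.53 ± 0.37), and FCGBP, a secreted protein of mucus (2.00 ± 0.30). All 5 were low, with at most 5.20 CPM in the WT libraries, and all 5 lost the call in 4 to 6 of the fits that left out 1 library. TP53TG3F, a near-identical copy of TP53TG3 that may share its reads, had 0 counts in WT cells on Tubastatin A and 1.18, 1.05 and 1.12 CPM in 6CD1m. It was at least 6.27-fold higher against the floor of 3 counts per library, and WT cells on PCI-34051 were at 1.29 to 1.39 CPM. VCY and VCY1B, copies on the Y chromosome with the same values in each library, were also named (3.10 ± 0.38) and cannot be counted apart. Their call was lost in 4 of the 6 fits without 1 library (adjusted p up to 0.00275).

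Further genes that rose are named after their values were seen. VMP1, a membrane protein needed for the formation of autophagosomes, was at 278, 283 and 282 CPM in 6CD1m and 139, 150 and 141 CPM in WT cells. This difference was small but tight, with a log2 fold change of 0.98 ± 0.08 (adjusted p = 4.73e-06). TAGLN, transgelin, an actin-binding protein of smooth muscle, was at 35.4, 32.9 and 31.0 CPM and 10.7, 15 and 15.9 CPM (1.25 ± 0.15). SOX4 (1.31 ± 0.14), CNTNAP3, a contactin-associated protein (1.35 ± 0.11), KRT80, a type II keratin (0.85 ± 0.10), and SERINC2, a membrane protein of the serine incorporator family (0.85 ± 0.11), rose as well. VMP1, SOX4 and CNTNAP3 kept the call in each fit without 1 library, while TAGLN lost it in 1, KRT80 in 3 and SERINC2 in 4 of the 6 (adjusted p up to 0.00269). CNTNAP3 has near-identical copies and its reads may be shared.

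The only run of more than 3 called genes with gaps of at most 100 kb lay among the olfactory receptor genes next to the β-globin genes. This interval was chosen after the calls were seen, and it is bounded by its called genes (chr11:5351508-5489749, 138.242 kb). Olfactory receptors are G protein-coupled receptors of the nasal epithelium, and this cluster shares its chromosomal domain with the globin locus control region. Of 11 genes in the interval 10 were tested and 9 were called higher, beside 0.271% of all genes. As called genes set its bounds, nothing is read from this share. All 10 had positive log2 fold changes, from 1.40 to 1.96, with a median of 1.66. The 9 called were olfactory receptor genes or pseudogenes, and the other, the processed pseudogene ENSG00000230087, did not pass (adjusted p = 0.00308). OR51I2, the gene named by the rule on size, was at 33.6, 30.2 and 34.4 CPM in 6CD1m and 7.24, 9.53 and 8.49 CPM in WT cells, which did not overlap (1.96 ± 0.17, adjusted p = 6.34e-06). OR52D1 was at 43.4, 45.7 and 52.4 CPM and 16.3, 16.3 and 17.1 CPM (1.51 ± 0.15).

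Summed over the 10 genes, 6CD1m libraries had 294 to 313 CPM, 6CD2m libraries 189 to 275 CPM, WT libraries on Tubastatin A 88.6 to 103 CPM and WT libraries on PCI-34051 76.9 to 84.9 CPM. 8CDm libraries, at 1.03 to 1.77 CPM, had hardly any. 6CD1m and 6CD2m cells did not differ for any of the 10 genes at 0.001 (edgeR, 4 at an unadjusted p below 0.05). In the 1000 kb to either side, 0 of 21 tested genes were called, with 12 at an unadjusted p below 0.05 and 3 called by DESeq2. The median log2 fold change of 40 other olfactory receptor genes tested was 0.52. Of these, OR51B5 (1.78 ± 0.18) and OR7E12P (1.72 ± 0.25) rose as well, beside 0.271% of all genes called higher. OR7E12P lies outside the interval, beside TSSC2 (chr11:3380961-3408978 for the pair). OR51B5 had no position in the annotation used and so was in none of these windows. It can therefore not be placed inside or outside the interval. OR51B5 was called in each fit without 1 library, and OR7E12P lost the call in 5. HBE1, the embryonic globin gene, whose annotated span (chr11:5268345-5505652) runs across the interval so that reads may be shared, was at 43.4, 60.6 and 69.5 CPM in 6CD1m and 34.2, 27.4 and 31.3 CPM in WT cells (0.90, adjusted p = 0.00633). As such long transcripts cover several of the genes, the 9 calls are not 9 separate observations. Without 1 library, OR51I2, OR52D1, OR51J1 and OR51A10P kept the call in each of the 6 fits.

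**Figure D5:**
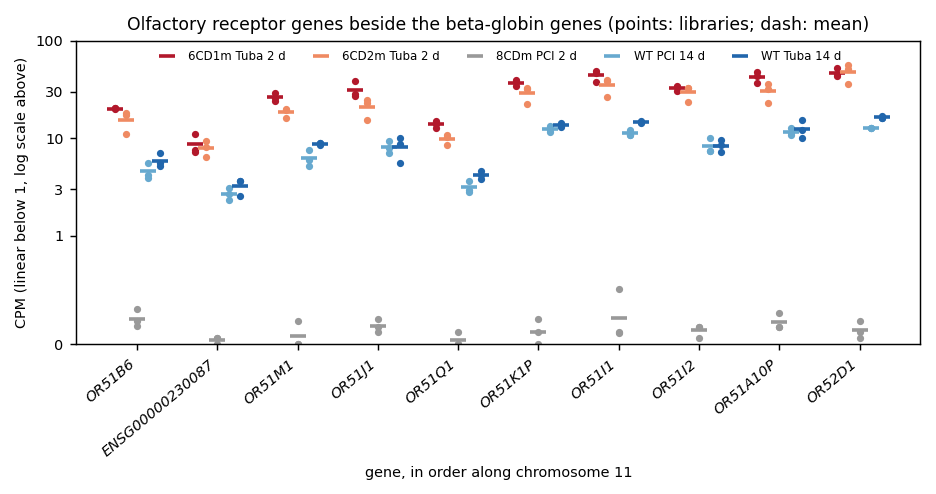
CPM in every library (points) and mean (dash) of the 10 tested genes (9 olfactory receptor genes or pseudogenes and ENSG00000230087) in their order along the interval, for the 5 groups, on an axis that is linear below 1 and logarithmic above. For every gene the 6CD1m libraries lie above those of WT cells on either inhibitor, and those of 8CDm cells lie under 1 CPM.

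Tubastatin A-treated 6CD1m cells were then set beside 6CD2m cells, which had the same inhibitor, dose and duration and differ by label in the catalytic domain that is substituted. Of the 155 genes, 84 differed between both mutant lines at 0.001, beside 13.2% of all genes tested. Of the 53 genes higher in 6CD1m than in WT cells, 11 were higher and 17 lower in 6CD1m than in 6CD2m cells, and 25 did not pass. Of the 102 lower genes, 41 were lower and 15 higher in 6CD1m than in 6CD2m cells, and 46 did not pass. Both comparisons share the 6CD1m libraries. In 17 of the 53 higher genes the 6CD1m libraries lay above all 12 others (1.8% of all genes), and in 44 of the 102 lower genes they lay below all 12 (2.07%). The WT libraries on Tubastatin A lay above all 12 others in 18 of the 102 genes (2.29% of all genes) and below all 12 in 6 of the 53 (0.85%). These counts use the libraries that chose the 155 genes, and nothing is read from them beyond which group stood apart.

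By chromosome, the median log2 fold change of protein-coding genes ran from -0.33 on chromosome 18 (191 genes) to 0.05 on chromosome 19 (998 genes). Across genes, the fold change correlated with GC content (Spearman coefficient 0.383), and the part of GC content in these medians was not tested. On chromosome 18, 6 of these 191 genes were called, with SLC14A1 higher and SERPINB2, SIGLEC15, EPG5, NPC1 and LAMA1 lower. This is 3.14%, beside 0.947% of all 13933 protein-coding genes. The share was higher on the Y chromosome, with 4 of 14 called (28.6%), namely VCY and VCY1B, KDM5D, a histone demethylase (-0.67 ± 0.09), and RBMY1A1, a testis RNA-binding protein of a multicopy family. This share counts both VCY and VCY1B, whose values are the same in each library and are not separate observations. RBMY1A1 had 59 counts in 6CD1m and 1 in WT cells (ratio 74.1, 95% interval 12.8 to 2976, counting error only). KDM5D lost the call in 4 and RBMY1A1 in all 6 of the fits without 1 library. The medians of the 9 pairs of libraries on chromosome 18 ranged from -0.61 to -0.09. The next lowest median was that of chromosome 5, at -0.23.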

How the data were processed

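Total RNA was rRNA-depleted and sequenced as paired reads of inhibitor-treated HT1080 cells. The deposited values are expected counts for 60675 genes, fractional because the authors' tool shares ambiguous reads among genes, and they were not normalized, and the submitters' processing notes name Trimmomatic 0.39, Bowtie2 2.4.5, RSEM 1.3.3, DESeq2 1.38.2 and GRCh38, without their settings. Counts were rounded to whole numbers (21.8% of nonzero values were not whole). With edgeR 4.0.16 under R 4.3.3 (limma 3.58.1), all 15 libraries entered 1 model with a mean per group after edgeR's filter on low counts (19535 genes kept) and TMM scaling. Groups were compared by the quasi-likelihood test with Benjamini-Hochberg adjustment at 0.001, taken from the study. The common biological coefficient of variation was 16.4%. Lists hold 370 different genes in 24 groups. The members and lists were chosen with earlier results of these data known. Genes named by rule are the 15 largest log2 fold changes in each direction of genes averaging log2 CPM 0 or more with non-overlapping libraries, pseudogenes left out, up to 4 called members of each list by size, the HDAC genes and the 3 smallest p-values in each direction; others are marked in the text. Positions come from GENCODE 29, which matched 57055 genes. Replicates are described as biological by the study, and p-values cover only the spread between these libraries. No 2 replicates agreed within counting noise. In simulated data (200 genes changed), the test recovered 0 at 1.5-fold (18944 genes), 63 at 2-fold (31.5%, 18910 genes) and 135 at 4-fold (67.5%, 18931 genes), with 0 false calls. Smaller differences were thus often not detectable there, while in the real data 41 called genes were under 2-fold. The simulated counts were drawn independently for each gene, without the GC-related deviations of the libraries. The 0 false calls therefore do not carry over to these data. Alternatives were DESeq2 1.42.0, other scalings and filters, GC offsets, thinning to 10932482 counts, a replicate block, fits of 6 libraries and leaving out each library.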

Additional observations from a re-analysis of the deposited data

Results flagged for a closer look

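For 24 of the genes named by rule and 18 of the 38 looked at among those named later, 6CD1m and 6CD2m cells on Tubastatin A differed (edgeR, adjusted p below 0.001). Of all genes tested, 13.2% did. For the 24 and 18 genes, the difference from WT cells on Tubastatin A was thus not the same in the 2 KDAC6 mutant lines. Both this comparison and the naming of the genes used the 6CD1m libraries, so nothing is read from these counts. Among genes named by rule and higher in 6CD1m than in WT cells, the log2 difference of 6CD1m minus 6CD2m was 1.73 for SLC14A1, 2.10 for LINC02593, 2.50 for LINC03061 and 4.26 for SOX7. It was -1.05 for ENSG00000280356, -2.12 for ARHGAP4, -3.94 for LAPTM5, -1.33 for TSPAN18 and -1.0 for CDH4, which were higher in 6CD2m cells. Among genes lower in 6CD1m than in WT cells, it was -8.52 for ACOT2 and -5.64 for SERPINB2, whose 6CD1m counts were all 0 so that the value depends on the prior count. It was -5.06 for MMP1, -4.85 for PGAP4, -4.02 for CCDC169, -5.79 for BCAM, -4.83 for ZNF468, -7.23 for MAGEC2 and -1.55 for PTPRN. Smaller differences were seen for HDAC6 (-0.90), SQSTM1 (-0.58), MT1X (-1.14) and NDRG1 (-0.75). IL1B (1.85) and CXCL8 (3.92) were lower in 6CD2m than in 6CD1m cells.

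Of the genes named later that were higher in 6CD1m than in WT cells, the difference of 6CD1m minus 6CD2m was 0.90 for SOX4 and 0.69 for CNTNAP3, and it was -0.86 for VMP1, -1.72 for TAGLN, -1.03 for KRT80, -1.47 for TEX19 and -1.31 for OR7E12P. Of those that were lower, it was -2.68 for SCG5, -1.07 for PAPPA, -0.79 for INHBA, -1.80 for ZNF829, -1.96 for ZNF568 and -0.54 for LAMA1. It was positive for NELL2 (1.84), ESM1 (1.61), EPG5 (0.87), ACTL8 (2.88) and SIGLEC15 (0.82).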

How the results depend on the processing

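The number of genes called differed strongly between analyses, while no called gene changed direction in any. Against 155 genes (53 higher, 102 lower), DESeq2 called 617 (206 higher, 411 lower) including all 155, no filter on low counts 428 (185 and 243), GC offsets 271 (84 and 187), and a minimum of 10 counts in every library 101, with 30 of them higher. An adjusted p below 0.05 gave 1847 (712 and 1135). A fit of only the 6 libraries gave 9 (4 and 5). Replicates carry the same numbers in both groups, but deviations of same-numbered libraries correlated with an r of -0.65, -0.16 and -0.54, so the numbers do not pair them. With the replicate block the number was 76 (26 and 50), and for the 6 libraries alone with the block 0 (0 and 0), where 1859 genes had an unadjusted p below 0.05. Without 1 library, 64 to 107 genes were called, 21 to 39 higher and 41 to 70 lower. Upper-quartile scaling called 149, with 40.9% of them higher against 34.2%, and moved the median of all genes from -0.01 to 0.10. The cause of these differences was not tested. Over the alternatives, 949 of 2895 results for single genes lost the threshold and 4 gained it. Thinning every library to the smallest total left 144 genes, 133 of them among the 155.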

Other observations

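Genes known from the germ line and from tumours, so-called cancer-testis genes, were on both sides of the comparison. ACTL8, an actin-like gene of testis, was at 26.9, 28.9 and 33.3 CPM in 6CD1m and 111, 95.7 and 97.2 CPM in WT cells on Tubastatin A (log2 fold change -1.77 ± 0.12, adjusted p = 3.95e-07). It was one of the 9 genes that also passed when only the 6 libraries were fitted, and it was lower in 6CD2m cells (3.45 to 4.41 CPM). GAGE2A, of a family of near-identical copies on the X chromosome, fell from 37.4, 29.4 and 31.5 CPM to 10.7, 16.1 and 16.0 CPM (-1.20 ± 0.16). TEX19, a gene of germ cells, rose from 2.10, 3.31 and 4.22 CPM to 11.1, 9.26 and 10.2 CPM (1.67 ± 0.23). GAGE2A lost the call in all 6 and TEX19 in 5 of the 6 fits that left out 1 library (adjusted p up to 0.0029 and 0.00375), while ACTL8 kept it in each. These genes were picked after their values were seen.

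Called genes also lay side by side elsewhere. ZNF829 and ZNF568, zinc finger genes of chromosome 19, fell together (-1.24 ± 0.16 and -1.32 ± 0.20). CD33, a sialic acid-binding receptor of myeloid cells, and the neighbouring pseudogene SIGLEC22P rose (1.15 ± 0.13 and 2.27 ± 0.31). ZNF568 lost the call without any 1 library, ZNF829 in 5 and SIGLEC22P in 4 of the 6 fits (adjusted p up to 0.00583), while CD33 kept it in each. On chromosome 18, SLC14A1 rose while SIGLEC15 (-1.23 ± 0.15) and EPG5 next to it fell, with SIGLEC15 losing the call without 6CD1m replicate 2 (adjusted p = 0.00171).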
